A study of Mus musculus with 2 samples.

Results

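The C/EBP and PAR bZIP factors were followed here in livers of B6NCrl mouse embryos, taken at embryonic day 16.5. The group comprised 10 genes, listed by symbol under a rule that uses no measured value, though with earlier results of these data known: Cebpa, Cebpb, Cebpd, Cebpe, Cebpg, Cebpz, Ddit3, Dbp, Tef and Nfil3. All 10 were found in the gene and transcript tables, among 43346 Ensembl genes. Total RNA-seq was made from 2 biological replicates, each a pool of livers from male and female embryos. Replicate 2 pooled 41 embryos per its label, while the label of replicate 1 leaves the number open, and both name the same donor. There is 1 condition, with no treatment, mutant or other age, so levels are described and no test between conditions exists. Expected counts (reads assigned to a gene, which need not be whole) summed to 44477766 in replicate 1 and 48820712 in replicate 2.

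Factors of the bZIP class bind DNA as dimers, joined by a leucine zipper that lies beside a basic region. C/EBP-alpha is known as a driver of hepatocyte and granulocyte differentiation, and C/EBP-beta and C/EBP-delta as mediators of the acute phase response. The PAR bZIP factors Dbp, Tef and Hlf follow the circadian clock in adult tissues and bind the D-box, which the repressor Nfil3 also binds. Cebpz carries the family's symbol but is not a bZIP protein, and its yeast counterpart works in the assembly of the large ribosomal subunit. The E16.5 liver is at once a hepatocyte tissue and a site of blood formation.

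The tissue label held in the markers. Of 8 hepatocyte markers, 8 stood at or above 1 TPM in each library, and their median was 6244 TPM in replicate 1 and 7059 TPM in replicate 2, and the same was found for 8 of 8 erythroid, 8 of 8 neutrophil and 8 of 8 macrophage markers. TPM is the relative number of transcripts of a gene, a level scaled by transcript length that can be compared between genes. In whole tissue, fewer cells of a type and less RNA per cell cannot be told apart.

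Of the 10 genes, 8 were expressed, meaning 1 TPM or more in both libraries, and Cebpb and Dbp were not. The same threshold was passed by 27.9% of all 43346 Ensembl genes and by 52.2% of 21474 protein-coding genes. The 8 expressed genes lay between 6.17 TPM (Nfil3) and 22.2 TPM (Ddit3), with 6 of them in a band of 6.17 to 9.73 TPM. The median over the 10 genes was 6.16 TPM in replicate 1 and 7.33 TPM in replicate 2, against 1.41 and 1.57 TPM for the median protein-coding gene.

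**Figure D1:**
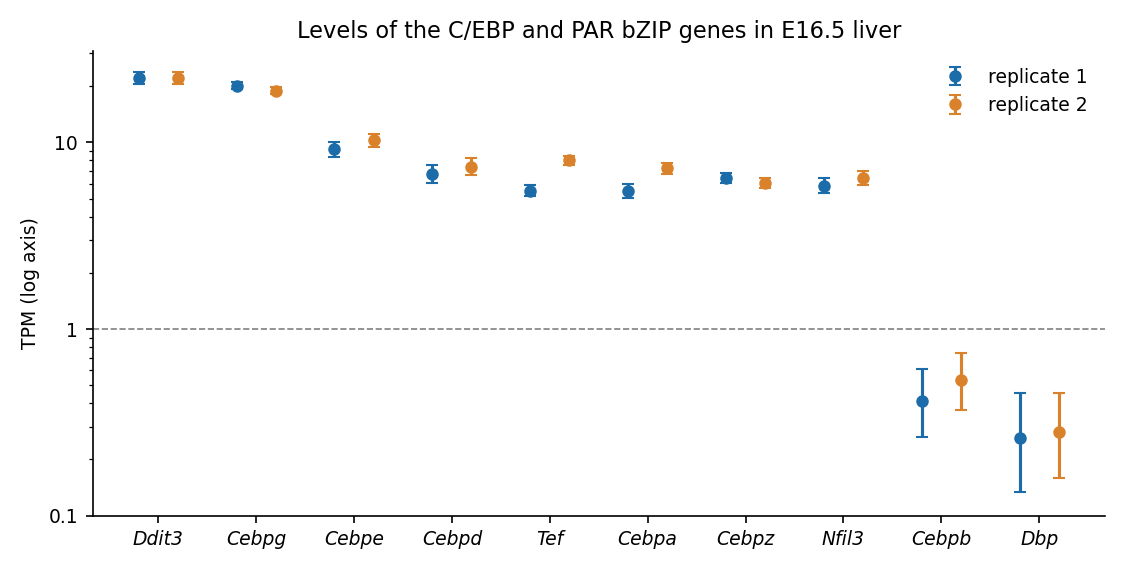
TPM (log axis) of each gene in replicate 1 and replicate 2, in order of mean level; points are library values, bars the 95% exact Poisson interval of the expected count turned into TPM, and the dashed line marks 1 TPM. Ddit3 and Cebpg stand above the rest in both libraries, and Cebpb and Dbp are the 2 genes below the line.

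The highest levels belonged to Ddit3 and Cebpg, C/EBP members that do not act as classical activators. The repressor Nfil3, not an activator either, stood lower, at a mean of 6.17 TPM. Ddit3 encodes CHOP, a C/EBP partner with an altered basic region that is induced in the integrated stress response. Ddit3 had 22.2 TPM in replicate 1 and 22.1 TPM in replicate 2, a mean of 22.2 ± 0.042 TPM (SD, n = 2, as for all means below). Its 703 and 780 expected counts carried 95% exact Poisson intervals of 652 to 757 and 726 to 837. The library values differed by far less than these counting intervals allow. Cebpg encodes C/EBP-gamma, a short factor without an activation domain that forms heterodimers, among others with Atf4. Cebpg had 20.1 TPM in replicate 1 and 18.9 TPM in replicate 2, a mean of 19.5 ± 0.83 TPM. Together Cebpg and Ddit3 made up 51.4% of the TPM summed over the 10 genes in replicate 1 and 47.0% in replicate 2.

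The 4 longer C/EBP activators summed to 21.9 TPM in replicate 1 and 25.4 TPM in replicate 2, below the pair of Cebpg and Ddit3 in both. The leading one was Cebpe, a factor known for the last steps of neutrophil maturation, with 9.20 TPM in replicate 1 and 10.3 TPM in replicate 2 (mean 9.73 ± 0.74 TPM). Cebpd followed with 6.79 TPM in replicate 1 and 7.40 TPM in replicate 2 (mean 7.10 ± 0.43 TPM). Cebpa had 5.50 TPM in replicate 1 and 7.25 TPM in replicate 2 (mean 6.38 ± 1.24 TPM). Cebpe thus stood above Cebpa in both libraries, by 1.67 times in replicate 1 and 1.41 times in replicate 2. Cebpb was nearly silent beside them, with 0.41 TPM in replicate 1 and 0.53 TPM in replicate 2 (mean 0.47 ± 0.085 TPM). These values rest on 24 and 34 expected counts, with intervals of 15.4 to 35.7 and 23.5 to 47.5. Cebpa exceeded Cebpb 13.4 times in replicate 1 and 13.7 times in replicate 2.

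Dimer partners can be set side by side as ratios of TPM. Cebpg exceeded Cebpa 3.65 times in replicate 1 and 2.61 times in replicate 2, and Ddit3 exceeded Cebpa 4.04 and 3.05 times. Between Ddit3 and Cebpg the ratio was 1.10 in replicate 1 and 1.17 in replicate 2. These are ratios of RNA, and protein was not measured.

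The factors of the D-box were unequal. Tef, a PAR activator, had 5.52 TPM in replicate 1 and 8.04 TPM in replicate 2, a mean of 6.78 ± 1.78 TPM, and its spread was the widest of the 10 genes at a coefficient of variation of 26.3%. Dbp, the PAR factor named for its binding to the albumin promoter, had 0.26 TPM in replicate 1 and 0.28 TPM in replicate 2 (mean 0.27 ± 0.014 TPM). Dbp was the lowest of the 10 genes in both libraries. Its expected counts were 11.7 (95% exact Poisson interval 6.01 to 20.6) and 16.0 (9.16 to 26.0), and they are not whole, as happens when reads are divided between genes. The deposited posterior mean of Dbp, a second estimate of the same level, was 0.39 TPM in replicate 1 and 0.40 TPM in replicate 2. Hlf, the other PAR factor, had 5.23 TPM in replicate 1 and 6.36 TPM in replicate 2. The repressor Nfil3 had 5.86 TPM in replicate 1 and 6.47 TPM in replicate 2 (mean 6.17 ± 0.43 TPM). Nfil3 over the sum of Dbp and Tef came to 1.01 in replicate 1 and 0.78 in replicate 2. With Hlf added to that sum it was 0.53 in replicate 1 and 0.44 in replicate 2, so Nfil3 was lower than the summed PAR factors in both libraries.

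Cebpz had 6.46 TPM in replicate 1 and 6.07 TPM in replicate 2, a mean of 6.27 ± 0.28 TPM, on 1081 and 1098 expected counts. In the order of mean levels, Ddit3, Cebpg and Cebpe each stood above the next gene without overlap of the library ranges. The Poisson intervals of Ddit3 and Cebpg in TPM overlapped in replicate 1, at 20.59 to 23.90 and 19.28 to 20.95. In replicate 2 they were apart, at 20.61 to 23.75 and 18.14 to 19.73. From Cebpd through Tef, Cebpa and Cebpz to Nfil3, each gene overlapped the next in line, so the order of these 5 is not resolved. Tef ranked 7 in replicate 1 and 4 in replicate 2, and Cebpa ranked 8 and 6. Below them, Cebpb and then Dbp were each apart from the gene above by library range. The Poisson intervals of Cebpb and Dbp in TPM overlapped, so the order of this pair is not resolved. They were 0.263 to 0.610 and 0.133 to 0.457 in replicate 1, and 0.367 to 0.741 and 0.160 to 0.455 in replicate 2.

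Sequence around the annotated starts was taken for genes at both ends of this order, because Ddit3 and Dbp differ most in level and Tef uses a pair of starts that the transcript values below separate. The windows hold 250 bases before and 50 bases from the start, read 5′ to 3′ on the gene's strand, from RefSeq for assembly GRCm38.p6. Entries were present for 7 of the 10 genes, 8 windows in all. Capitals mark matches, on either strand, to any of 7 motifs. These were the E-box of the clock factors, spelled CACGTG, the CCAAT box, the TATA box spelled TATAAA, the pair of C/EBP half-sites spelled TTGCNNAA, the D-box spelled TTANGTAA, the composite site of Atf4 and a C/EBP factor spelled TGATGCAA, and the cyclic AMP response element spelled TGACGTCA.
Ddit3, chr10:127290543-127290842 (+ strand): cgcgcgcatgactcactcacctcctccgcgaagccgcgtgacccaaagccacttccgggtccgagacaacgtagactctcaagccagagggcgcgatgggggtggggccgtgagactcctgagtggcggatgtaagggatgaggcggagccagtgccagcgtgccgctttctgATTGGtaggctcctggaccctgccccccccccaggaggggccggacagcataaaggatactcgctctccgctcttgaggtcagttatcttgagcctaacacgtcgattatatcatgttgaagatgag
Dbp, chr7:45704997-45705296 (+ strand): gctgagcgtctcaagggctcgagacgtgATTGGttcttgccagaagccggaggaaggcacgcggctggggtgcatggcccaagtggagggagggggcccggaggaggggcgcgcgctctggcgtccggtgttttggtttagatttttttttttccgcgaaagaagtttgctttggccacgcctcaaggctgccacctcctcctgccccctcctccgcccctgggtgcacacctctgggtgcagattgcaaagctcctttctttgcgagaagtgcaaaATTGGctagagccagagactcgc
Tef, chr15:81802423-81802722 (+ strand): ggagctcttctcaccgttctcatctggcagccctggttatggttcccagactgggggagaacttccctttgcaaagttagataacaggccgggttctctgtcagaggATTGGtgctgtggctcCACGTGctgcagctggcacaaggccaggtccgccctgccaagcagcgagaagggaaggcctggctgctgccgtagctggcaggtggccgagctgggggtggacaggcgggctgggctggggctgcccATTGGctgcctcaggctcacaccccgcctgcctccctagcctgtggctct
Tef, chr15:81811164-81811463 (+ strand): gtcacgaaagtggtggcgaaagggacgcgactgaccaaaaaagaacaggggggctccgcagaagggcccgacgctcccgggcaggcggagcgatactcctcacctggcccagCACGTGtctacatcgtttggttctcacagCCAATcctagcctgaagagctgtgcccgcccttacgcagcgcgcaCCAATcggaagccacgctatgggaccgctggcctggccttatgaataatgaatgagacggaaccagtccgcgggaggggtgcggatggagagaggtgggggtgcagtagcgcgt

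Both Tef windows contained 1 E-box, at bases -127 to -122 from the upstream start and -138 to -133 from the downstream start, with the start base counted as 0. None of the other 6 windows did, and 7.15% of 32851 RefSeq promoter windows hold that motif. Each Tef window also held 2 CCAAT matches, as did those of Dbp and Cebpg, and the windows of Ddit3 and Nfil3 held 1 each, both at -77 to -73. CCAAT is common, at 37.4% of windows. TATAAA was found in the windows of Cebpa, at -30 to -25, and Cebpb, at 21 to 26, against 13.6% of all windows. The letters of the C/EBP pair (10.8% of all windows), the D-box (2.32%), the composite site (0.895%) and the cyclic AMP element (1.79%) were in none of the 8. A match describes the letters of a window and shows no binding.

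Transcripts were estimated separately, and 6 of the genes have 1 transcript in the tables. Tef has 10, on chromosome 15. Transcripts that begin within 500 bases of the upstream RefSeq start, 5 of the 10, held 68.5% of Tef TPM in replicate 1 and 68.6% in replicate 2. The 2 transcripts of the downstream start held 30.4% in replicate 1 and 25.3% in replicate 2. The upstream set was the larger one in both libraries.

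The leading Tef transcript, Tef-202, had 2.45 TPM in replicate 1 and 3.72 TPM in replicate 2. Tef-201 has another first exon, which begins 8993 bases downstream, and had 1.68 TPM in replicate 1 and 2.04 TPM in replicate 2. Both use the same middle exons and a last exon with the same start and another end, and 451 bases of Tef-202 and 307 bases of Tef-201 lie in no other Tef transcript. Their coding parts are 855 and 903 bases. The deposited TPM intervals of Tef-202, 1.90 to 2.84 in replicate 1 and 3.13 to 4.16 in replicate 2, did not overlap, while those of Tef-201, 1.20 to 2.17 and 1.52 to 2.55, did. Whether the transcripts differ in this was not tested. Tef-203, annotated as a retained intron, had 1.13 TPM in replicate 1 and 1.49 TPM in replicate 2, which is 20.5% and 18.5% of the gene. Protein-coding transcripts therefore made up 74.8% of Tef TPM in replicate 1 and 73.3% in replicate 2.

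**Figure D2:**
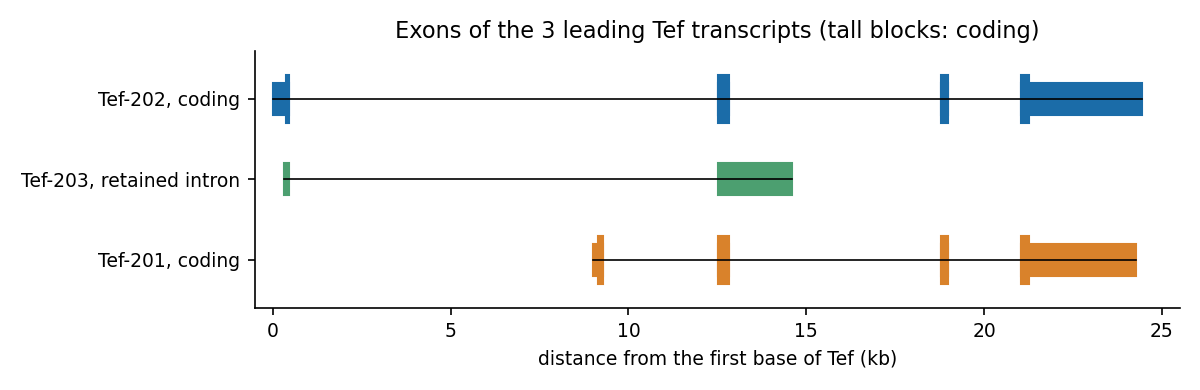
Exons (blocks) and introns (lines) of the 3 Tef transcripts with the highest TPM, by distance in kb from the first base of the gene; tall blocks are coding. Tef-202 and Tef-203 share the upstream first exon, and Tef-201 begins 8993 bases downstream.

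Cebpg, on chromosome 7, has a short and a long transcript that share the same 450 coding bases. By TPM they were near equal. Cebpg-201, of 890 bases, had 10.0 TPM in both replicates, and Cebpg-202, of 4639 bases, had 10.1 TPM in replicate 1 and 8.90 TPM in replicate 2. By expected count, which grows with length, Cebpg-202 held 85.3% of the gene in replicate 1 and 83.6% in replicate 2. Cebpg-201 has 296 bases of its own, so its level rests on that short stretch. The leading transcript by TPM was Cebpg-202 in replicate 1 and Cebpg-201 in replicate 2.

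Ddit3, on chromosome 10, was carried by Ddit3-201, with 16.9 TPM in replicate 1 and 18.9 TPM in replicate 2, or 76.3% and 85.4% of the gene. Ddit3-203 had 3.45 TPM in replicate 1 and 1.67 TPM in replicate 2, but it has 0 bases of its own, and the deposited intervals overlapped. The retained-intron transcript Ddit3-202 held 8.16% in replicate 1 and 7.09% in replicate 2. All 3 begin within 500 bases of the RefSeq start shown above. Dbp, on chromosome 7, has 5 transcripts, of which 2 had no counts in either library. The others shared the 11.7 and 16.0 counts given above. Dbp-201 led by expected count in both libraries, but the leading transcript by TPM differed between them, so no transcript is called.

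**Figure D3:**
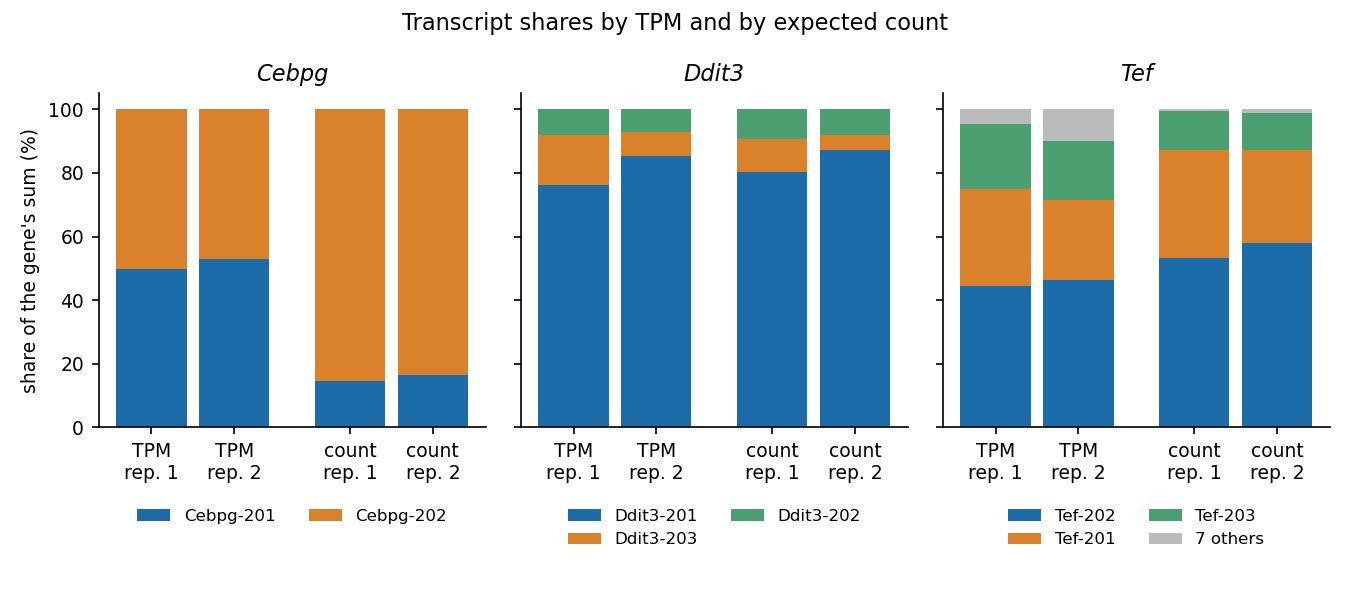
Share of each gene's summed TPM (left pair of bars) and summed expected count (right pair) held by its transcripts in replicate 1 and replicate 2, for Cebpg, Ddit3 and Tef. Cebpg-201 holds 49.8% and 53.0% by TPM and 14.7% and 16.4% by count, while Ddit3-201 and Tef-202 lead on both scales.

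Genes that lie over or beside these factors matter for the reads, since the labels name no strand-specific step and reads of opposite strands were treated as not told apart. Tmem189, on the strand opposite Cebpb (chromosome 2), shares 312 exon bases, 20.7% of the Cebpb exons, and had 12.3 TPM in replicate 1 and 12.0 TPM in replicate 2. Sphk2, opposite Dbp, shares 539 exon bases, 18.0% of the Dbp exons, and had 9.68 TPM in replicate 1 and 12.1 TPM in replicate 2. Spidr, at 10.0 TPM in replicate 1 and 9.23 TPM in replicate 2, shares 562 bases with Cebpd (chromosome 16), 15.0% of its exons in the later annotation. Cebpzos, at 39.6 TPM in replicate 1 and 37.6 TPM in replicate 2, shares 171 bases with Cebpz (chromosome 17), 3.67% of its exons. Mars, at 96.3 TPM in replicate 1 and 87.5 TPM in replicate 2, shares 68 bases with Ddit3, 3.97% of its exons. Cebpb, Dbp, Cebpd, Cebpz and Ddit3 thus each overlap a more abundant gene in the later annotation. Of these pairs, only Dbp and Sphk2 had counts that were not whole, and the level of Dbp is uncertain in that respect. Sphk2 had 1195.97 and 1604.47 expected counts. Counts of the other pairs were whole, such as 1112 and 1181 for Tmem189, and so show no reads divided between the genes. How reads of the shared bases were assigned was not tested. Gm17597 shares 193 bases with Tef, at 0.23 TPM in replicate 1 and 0.35 TPM in replicate 2. Gm4189 shares 13 bases with Ddit3. The genes near a member without overlap were Ndufaf7, which begins 69 bases from Cebpz and had 12.0 TPM in replicate 1 and 11.1 TPM in replicate 2, Pepd near Cebpg at 47.9 and 49.1 TPM, Mbd6 and Gm20492 near Ddit3 at under 6 TPM, and Car11 near Dbp and A530013C23Rik near Cebpb at under 1 TPM. The Cebpd model behind the deposited values is 1180 bases long, against 3746 bases in the later annotation used for coordinates, so its level rests on the shorter model. Cebpe lies on chromosome 14 and Nfil3 on chromosome 13, with no gene over them or starting within 2 kb.

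The replicates were compared by dividing TPM + 1 of replicate 1 by that of replicate 2, on the log2 scale. The median ratio of the 12017 genes that averaged at least 100 expected counts, -0.02, was then subtracted. Of the 10 genes, 0 were past 2-fold in either direction, against 0.597% of the 16258 genes that averaged at least 10 expected counts. The 10 ratios ran from -0.45 for Tef to 0.10 for Cebpg.

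Tef and Cebpa had the lowest ratios of the 10. The centred ratio of Tef was -0.45, and 2.72% of the 16258 genes had a ratio as low or lower. That of Cebpa was -0.33, with 5.83% as low or lower. For both, the deposited TPM intervals did not overlap: 5.49 to 6.99 in replicate 1 and 7.81 to 9.53 in replicate 2 for Tef, and 5.001 to 5.88 in replicate 1 and 6.68 to 7.66 in replicate 2 for Cebpa. These 2 of 10 genes compare with 12.2% of all genes whose intervals were apart in that direction, and 0 of 10 with 8.4% apart in the other. With 1 library on each side there is no test of either difference.

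Scaling to the spike-ins moved the median gene by 0.31, to higher values in replicate 1. Of the 10 ratios, 3 were then below 0, against 7 without it. In the main setting 8422 of 16258 genes overall lay below 0, and that share was not computed under spike-in scaling. With spike-in scaling Tef stood at -0.15 and Cebpa at -0.02. Relative to the median gene both remained lower in replicate 1. Spike-in scaling changes all genes of a library by the same factor, so apart from the pseudocount it could not alter that. The spike-ins took 2.50% of expected counts in replicate 1 and 3.19% in replicate 2.

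**Figure D4:**
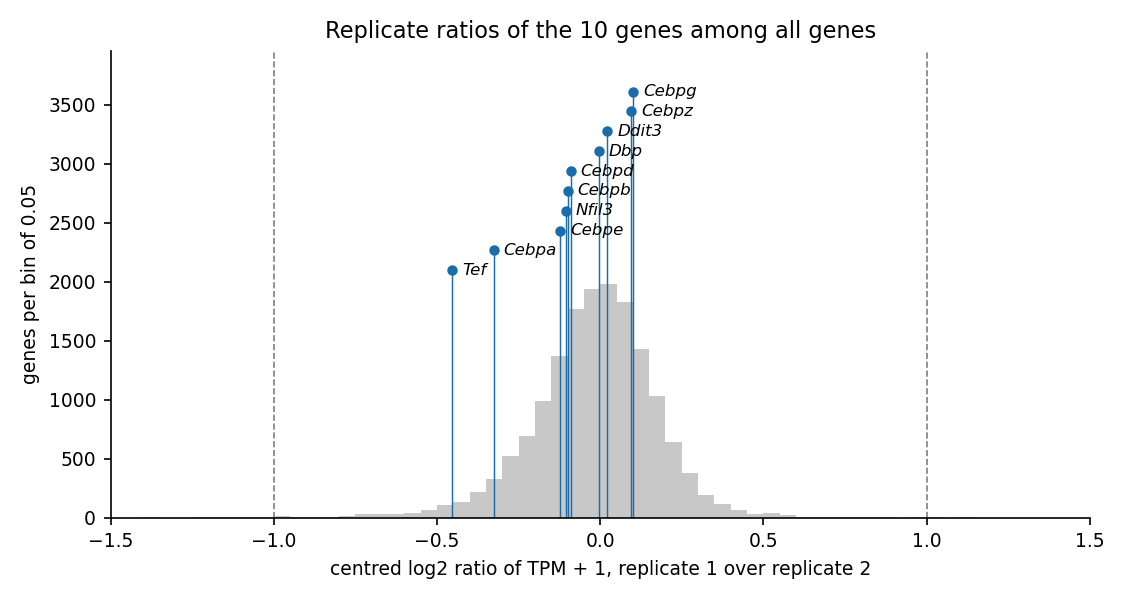
Grey bars count genes by centred log2 ratio of TPM + 1, replicate 1 over replicate 2, for the 16258 genes that averaged at least 10 expected counts; blue markers place the 10 genes, their heights serve only to separate the names, and dashed lines mark 2-fold. Tef and Cebpa lie on the left flank, and 0 of the 10 pass a dashed line.

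The summed levels of the cell type markers also varied between the libraries. Markers are counted as lower here by a centred ratio below 0, where 8422 of 16258 genes overall also lay. Bile duct markers summed to 6.37 TPM in replicate 1 and 18.3 TPM in replicate 2, with 5 of 5 lower in replicate 1. Of these 5, 2 were expressed. The shift was uneven. Epcam had 0.76 TPM in replicate 1 and 5.75 TPM in replicate 2, and Krt19 2.50 and 8.28 TPM. Krt7 had 2.11 TPM in replicate 1 and 3.01 TPM in replicate 2, and Cftr 0.03 and 0.08 TPM. Stellate markers summed to 246 TPM in replicate 1 and 305 TPM in replicate 2, with 6 of 6 lower. Hepatocyte markers summed to 52769 TPM in replicate 1 and 57999 TPM in replicate 2, with 6 of 8 lower. Macrophage markers summed to 490 TPM in replicate 1 and 523 TPM in replicate 2, with 6 of 8 lower, and endothelial markers to 111 and 116 TPM, with 5 of 6 lower. Erythroid markers went the other way in their sum, with 351369 TPM in replicate 1 and 343163 TPM in replicate 2 and 3 of 8 lower in replicate 1. None of these markers was at 0. Their part in the ratios of Tef and Cebpa was not tested.

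The other genes around these factors are given by lists, which were described by counts and medians and not tested. Beside each count of expressed genes stand the shares of 27.9% over all Ensembl genes and 52.2% over protein-coding genes. The lists of C/EBP-alpha liver targets and of lymphoid genes lay below the latter share, at 42.9% and 40%. Of 35 other bZIP factors and dimer partners, 29 were expressed, with a median of 5.63 TPM in replicate 1 and 6.36 TPM in replicate 2. The erythroid factor Nfe2 led at 177 TPM in replicate 1 and 191 TPM in replicate 2. Atf4, the main factor of the integrated stress response and a partner of Cebpg, followed at 120 TPM in replicate 1 and 119 TPM in replicate 2. Xbp1, of the unfolded protein response, had 92.2 TPM in replicate 1 and 101 TPM in replicate 2. Each of these stood above every one of the 10 genes, and Fosb, at 0 and 0.01 TPM, was the lowest of the list.

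The integrated stress response holds the kinases and targets around Atf4 and Ddit3. Of its 20 genes, 18 were expressed, with a median of 14.7 TPM in replicate 1 and 15.9 TPM in replicate 2. The chaperone Hspa5 had 489 TPM in replicate 1 and 468 TPM in replicate 2. The asparagine synthetase gene Asns, a target of Atf4, had 306 TPM in replicate 1 and 271 TPM in replicate 2. Ppp1r15a, which encodes the phosphatase subunit that ends the response, had 258 TPM in replicate 1 and 287 TPM in replicate 2. Slc7a11 was lowest, at 0.11 and 0.23 TPM. With no unstressed or stressed group in the design, none of these levels says whether the response was raised.

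Genes named as targets of the C/EBP activators were followed next. Of 7 hepatocyte genes reduced in newborn mice without C/EBP-alpha, 3 were expressed: Alb at 6490 TPM in replicate 1 and 7615 TPM in replicate 2, the glycogen synthase gene Gys2 at 71.6 and 73.4 TPM, and the urea cycle gene Cps1 at 39.8 and 56.4 TPM. The lowest, Ugt1a1 of bilirubin conjugation, had 0.09 TPM in replicate 1 and 0.18 TPM in replicate 2. The list median was 0.83 TPM in replicate 1 and 0.70 TPM in replicate 2. Of 18 acute phase genes and cytokine receptors tied to C/EBP-beta and C/EBP-delta, 14 were expressed, led by the fibrinogen genes Fga, Fgg and Fgb at 1260, 1111 and 700 TPM in replicate 1 and 1346, 1208 and 768 TPM in replicate 2. The serum amyloid genes Saa1 and Saa2 and the orosomucoid gene Orm2 had no expected count in either library. Whether levels on this list depend on Cebpb or Cebpd was not tested. The serum amyloid and orosomucoid families have close copies, among which reads can be divided. Counts of their other listed members were whole, at 300 and 511 for Saa3 and 26 and 29 for Orm1, and so show no such division.

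The myeloid lists were expressed throughout. Of 6 early neutrophil genes with C/EBP-alpha sites, 6 were expressed, led by Mpo at 372 TPM in both replicates, Elane at 195 TPM in replicate 1 and 189 TPM in replicate 2, and Prtn3 at 93.4 and 84.6 TPM. The lowest was Gfi1, a repressor, at 1.26 TPM in both replicates. Of 8 later granule genes that need C/EBP-epsilon, 8 were expressed, with a median of 73.3 TPM in replicate 1 and 92.9 TPM in replicate 2. Ngp had 514 TPM in replicate 1 and 666 TPM in replicate 2, Camp 350 and 390 TPM, and Lcn2 187 and 238 TPM, while Mmp9 was lowest at 7.86 and 11.4 TPM.

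The later granule genes were lower in replicate 1 in 8 of 8 cases, with a median centred ratio of -0.33, and 8422 of 16258 genes overall lay below 0. Cebpe itself had a ratio of -0.12, within overlapping TPM intervals of 8.28 to 9.97 in replicate 1 and 9.27 to 11.0 in replicate 2. For the early granule genes the median ratio was 0.04, with 1 of 6 below 0. Neutrophil markers, 3 of which are on the later list, summed to 6194 TPM in replicate 1 and 6533 TPM in replicate 2. Their part in these ratios was not tested.

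Clock genes, which drive the PAR factors in adult liver, were low to moderate, with 13 of 17 expressed and a median of 3.37 TPM in replicate 1 and 3.55 TPM in replicate 2. Csnk1d, a kinase of the Per proteins, had 29.4 TPM in replicate 1 and 32.1 TPM in replicate 2. Bhlhe40, a repressor at E-boxes, had 15.5 TPM in replicate 1 and 18.5 TPM in replicate 2. Cry2 had 12.0 TPM in replicate 1 and 13.1 TPM in replicate 2, and the lowest was Bhlhe41 at 0.07 and 0.11 TPM. The labels give no hour of collection. Of 9 adult liver genes that need PAR factors, 6 were expressed. Por, the electron donor of cytochrome P450 enzymes, had 41.3 TPM in replicate 1 and 46.3 TPM in replicate 2, Ppara 37.5 and 45.4 TPM, and Alas1 of heme synthesis 29.6 and 31.5 TPM. The list median was 1.85 TPM in replicate 1 and 2.08 TPM in replicate 2, and Cyp2c29 was lowest, at 0 TPM in both. Several of its cytochrome genes have near-identical copies, so their levels are uncertain.

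The remaining lists bear on turnover, ribosome assembly and lymphoid cells. Of 7 genes of C/EBP turnover, 7 were expressed, with Skp2 at 17.0 TPM in replicate 1 and 14.4 TPM in replicate 2, Gsk3b at 8.40 and 7.88 TPM, Cop1 at 7.62 and 6.95 TPM, and Trib2 lowest at 2.02 and 1.98 TPM. All 16 nucleolar genes of ribosome assembly were expressed. Their median was 23.9 TPM in replicate 1 and 21.6 TPM in replicate 2, above Cebpz in both libraries. Mrto4 had 58.0 TPM in replicate 1 and 54.5 TPM in replicate 2, Ebna1bp2 51.3 and 48.8 TPM, Ppan 51.3 and 47.1 TPM, and Noc3l was lowest at 2.52 and 2.33 TPM. Of these 16, 1 had a centred ratio below 0, against 8422 of 16258 genes overall. The ratio of Cebpz was 0.10, and 74.4% of genes had one as low or lower, with overlapping TPM intervals of 5.999 to 6.76 in replicate 1 and 5.65 to 6.36 in replicate 2. Of 10 natural killer and innate lymphoid genes of lineages that need Nfil3, 4 were expressed, namely Id2 at 119 TPM in replicate 1 and 106 TPM in replicate 2, Nkg7 at 12.0 and 11.0 TPM, Gzma at 2.96 and 4.94 TPM, and Tox at 1.95 and 2.48 TPM. The lowest was Eomes at 0.05 TPM in replicate 1 and 0 TPM in replicate 2.

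**Figure D5:**
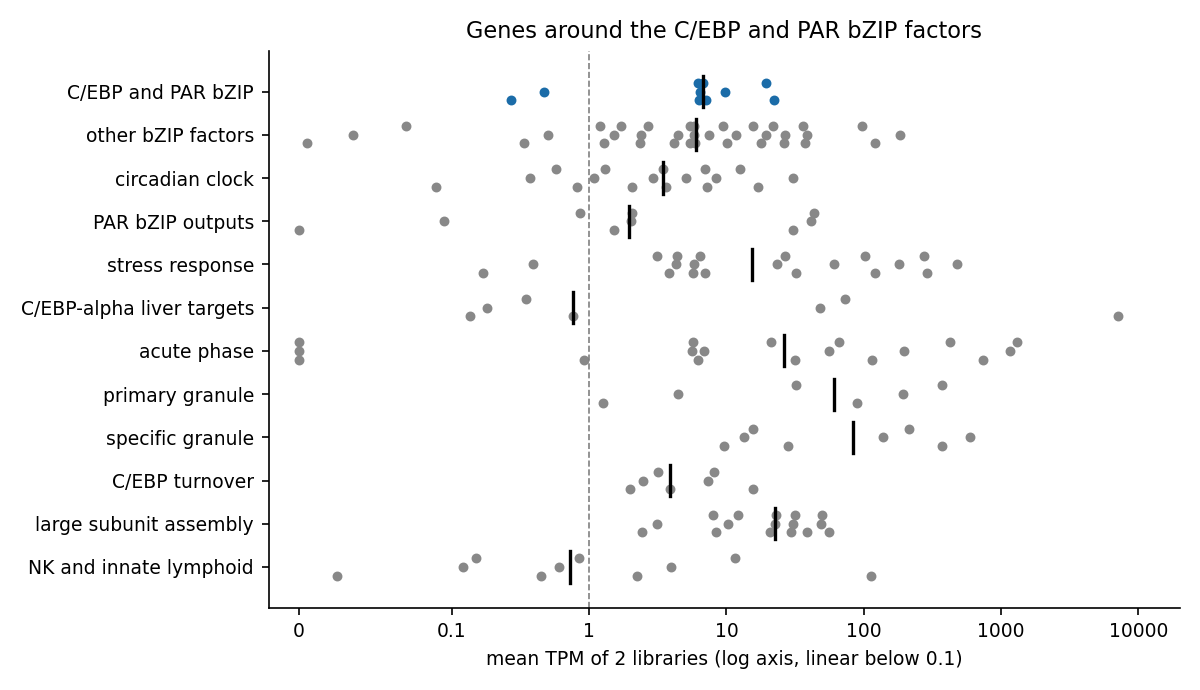
Mean TPM of the 2 libraries (log axis, linear below 0.1) for each gene of each list; points are genes, black bars list medians (the mean of the 2 library medians) and the dashed line marks 1 TPM. Of the C/EBP and PAR bZIP genes, Cebpb and Dbp fall below the line and the others lie between 6.17 and 22.2 TPM, and the later granule list has the highest median among those shown.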

How the data were processed

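The authors deposited 1 gene table and 1 transcript table a library, quantified on mouse assembly mm10 and GENCODE M4, per the file headers and the accompanying text. The expected counts are, per the file headers, estimated counts that need not be whole. The deposited TPM and posterior mean TPM are scaled over all rows, spike-ins included, and the deposited FPKM entered an alternative only. The deposited TPM interval bounds, a signal on the TPM scale, carry no stated level. The deposited percent columns (transcript shares) were recomputed from TPM. No source used here names the aligner. Per the labels, RNA above 200 nt was extracted with the mirVana kit, and 10 ng a library went into the SMARTer ultra-low kit, with spike-ins.

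IDs were matched without version to GENCODE M21 (GRCm38, the build called mm10) for symbols and coordinates. Of the 10 genes, 9 had counts within 0.01 of a whole number. Intervals cover counting error only, as reads had no molecular identifiers. The labels call the libraries biological replicates, but their spread may be partly technical. The members and lists were chosen with earlier results of these data known. Besides the 10 genes, the 3 highest and the lowest gene of each list were named, with genes that overlap a member or begin within 2 kb; Hlf, Tox and further genes at 0 were added after their values were seen. Neighbours outside the tables were not analysed here. Some genes stand on more than 1 list.

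The 2 libraries form 1 group, so no p-value is given. Expressed means 1 TPM in both. Ratios used a pseudocount of 1 TPM, which understates changes of low genes. Alternatives were other thresholds and pseudocounts, TMM factors (edgeR 4.0.16), DESeq2 1.42.0 size factors on rounded counts, spike-in scaling and each library alone. Tools were R 4.3.3, pandas 2.3.3, numpy 2.4.6, matplotlib 3.10.9 and scipy 1.17.1 under python 3.11.15.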

Additional observations from a re-analysis of the deposited data

How the results depend on the processing

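The count of 8 expressed genes was the same at 0.5 TPM, at 5 TPM, with the posterior mean TPM and in either library alone, and was 10 at 10 expected counts in both. The order of levels kept 10 of 10 ranks under rescaling to nuclear genes, FPKM and TMM scaling. These settings change all genes of a library by the same factor, so they cannot alter the order within a library. The order kept 8 ranks with the posterior mean TPM, and 6 without replicate 1 or without replicate 2. Genes past 2-fold between the libraries numbered 97, against 50 at a mean expected count of 100 and 202 with no filter, and the alternatives' own filters set how many genes were counted. Levels rose 1.07 to 1.08 times when rescaled over nuclear genes, and the posterior mean moved Dbp most, to 0.395 TPM. Under TMM factors, DESeq2 size factors, no centring and other centring genes, 7 of 10 replicate ratios stayed below 0. Over all genes, 8422 of 16258 lay below 0 in the main setting. With a pseudocount of 5 TPM the ratio of Tef was -0.30. By expected count the leading TPM transcript of Cebpg held 15.6% in place of 51.4%. No paired analysis was possible because there is 1 group. Depth limits Cebpb and Dbp most, at 24 and 11.7 expected counts in the shallower library, and 2 libraries limit every spread.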
